A study of Mus musculus with 6 samples.

Results

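Interferons reach a cell through receptors that carry Janus kinases, and 8 genes of that first step were followed here in mouse colonic fibroblasts. They were the receptor chains for interferon-gamma (Ifngr1, Ifngr2) and for type I interferon (Ifnar1, Ifnar2), the kinases Jak1, Jak2 and Tyk2, and the inhibitor Socs1. The members were taken by gene symbol. All 8 were among the 38896 genes listed, with 33 of the 120299 transcripts, and all 8 passed the filter on low counts. The libraries came from fibroblasts of the distal colon of 6-week-old mice, grown for 2 passages and then kept for 24 h in control medium or in inflammatory conditioned medium. The labels name the groups control and DSS, the usual short form of dextran sulfate sodium, an agent that inflames the mouse colon, and the DSS libraries were taken to be those in inflammatory medium. Mice 1716, 1717 and 1718 each gave 1 control and 1 DSS culture (n = 3 a group), so the groups are paired by animal. The sources used here do not give the strain, the sex or how the medium was made.

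Interferon-gamma is bound by IFNGR1 and signals through IFNGR2, which carry JAK1 and JAK2. Type I interferon is bound by IFNAR2 with IFNAR1, which carry JAK1 and TYK2. The kinases phosphorylate STAT proteins, which enter the nucleus and raise interferon-stimulated genes, and SOCS1, itself a product of such a gene, binds and inhibits the kinases. In the gut, stromal cells are among the cells that answer interferons made by immune cells.

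In the DSS cultures 1 of the 4 receptor chains (Ifnar2), 2 of the 3 kinases (Jak2 and Tyk2) and Socs1 were higher, and no member was lower. Levels are given in CPM, counts scaled to the TMM-adjusted library total. Ifnar2 rose 1.48-fold, Jak2 1.57-fold, Tyk2 1.32-fold and Socs1 2.59-fold. Ifngr1, Ifngr2, Ifnar1 and Jak1 did not pass the test, with fitted changes of 0.951-fold, 1.02-fold, 1.06-fold and 0.993-fold. The test was edgeR's quasi-likelihood test at a Benjamini-Hochberg adjusted p under 0.05 over all genes tested. It called 4 of the 8 members, all higher. Of the 19869 tested genes it called 13.3%, with 7.37% higher and 5.91% lower. The median log2 fold change was 0.24 over the members and 0.01 over all tested genes. The members were chosen with earlier results of these data known, so these figures describe the list. In such bulk libraries fewer cells of a type and less RNA per cell cannot be told apart.

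Promoter sequence is shown for the members whose upstream stretch held a match to a motif of this pathway, and for Jak2, which rose and held none. The stretches are the 250 bases before the RefSeq start (GRCm38.p6), printed 5′ to 3′ on the strand of the gene, with matches in capitals. The motifs searched, on both strands, were TTCNNNGAA, the gamma-activated site bound by STAT dimers, and GAAANNGAAA, the core of the interferon-stimulated response element bound by interferon regulatory factors. Of 32851 RefSeq promoters, 7.02% held the first and 2.98% held the second within 250 bases.
Socs1, chr16:10785537-10785786, minus strand: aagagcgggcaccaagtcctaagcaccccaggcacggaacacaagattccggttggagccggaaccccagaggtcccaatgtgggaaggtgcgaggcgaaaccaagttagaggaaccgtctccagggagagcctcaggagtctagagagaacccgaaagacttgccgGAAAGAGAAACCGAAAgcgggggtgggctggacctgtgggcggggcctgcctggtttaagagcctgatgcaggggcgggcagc
Ifnar2, chr16:91372533-91372782, plus strand: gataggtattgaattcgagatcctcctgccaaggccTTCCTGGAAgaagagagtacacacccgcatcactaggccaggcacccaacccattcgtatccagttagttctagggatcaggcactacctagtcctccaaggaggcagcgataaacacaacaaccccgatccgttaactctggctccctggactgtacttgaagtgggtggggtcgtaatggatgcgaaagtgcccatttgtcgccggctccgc
Jak2, chr19:29251553-29251802, plus strand: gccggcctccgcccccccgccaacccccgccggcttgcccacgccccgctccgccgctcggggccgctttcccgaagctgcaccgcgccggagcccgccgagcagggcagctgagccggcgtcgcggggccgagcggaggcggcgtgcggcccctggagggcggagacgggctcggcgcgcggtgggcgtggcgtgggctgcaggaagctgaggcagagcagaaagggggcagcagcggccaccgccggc
The capitals in Socs1 are 2 matches to GAAANNGAAA that overlap, starting 83 and 77 bases before the start of transcription. The capitals in Ifnar2 are a single match to TTCNNNGAA that starts 214 bases before it. The other 6 members, among them Jak2 and Tyk2, which both rose, held neither motif in this window. For Ifnar1, Jak1 and Tyk2 the start used lies inside the gene span given below, so part of the window lies within the gene. A match is only a run of letters, and no binding was measured here.

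**Figure D1:**
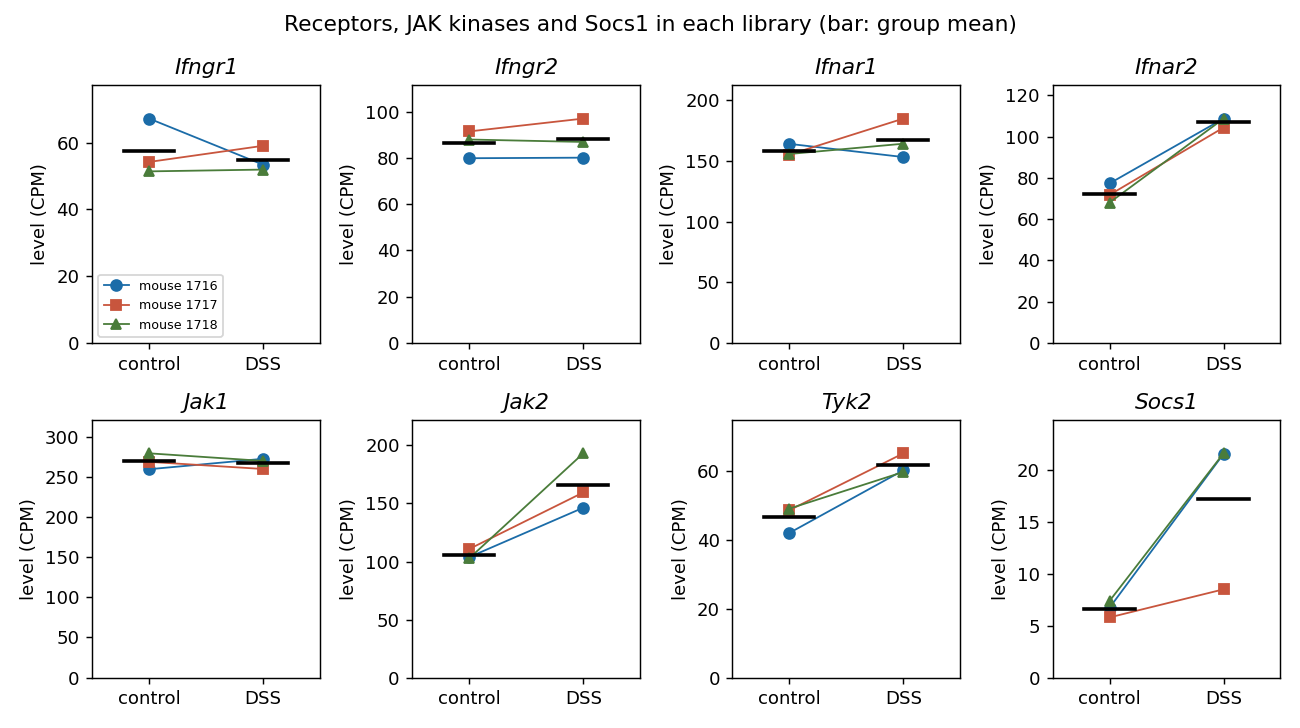
Level (CPM, vertical axes from 0) of each member in control and DSS, with 1 line per mouse and a black bar at the mean of 3 libraries. Ifnar2, Jak2, Tyk2 and Socs1 lay higher in all 3 DSS libraries than in any control library, while the groups overlapped for the other 4 genes.

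The receptor for interferon-gamma did not pass in either chain. Ifngr1 (NCBI Gene 15979, chromosome 10, 19591949 to 19610229, GRCm38), the chain that binds the cytokine, stood at 67.2, 54.2 and 51.4 CPM in the control cultures of mice 1716, 1717 and 1718. In the DSS cultures of the same mice it stood at 53.4, 59.1 and 52.0 CPM. The highest level was the control culture of mouse 1716, and the groups overlapped. The log2 fold change was -0.07 ± 0.11 (SE; edgeR adjusted p = 0.725), and its 95% interval ran from 0.793-fold to 1.14-fold.

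Ifngr2 (NCBI Gene 15980, chromosome 16, 91547059 to 91564007), the chain that brings JAK2 to the complex, was at 79.8, 91.4 and 87.9 CPM in control. It was at 80.1, 97.0 and 86.9 CPM in DSS, in the same order of mice. Here the levels followed the mouse more than the medium, with mouse 1716 lowest and mouse 1717 highest in both groups. The log2 fold change was 0.03 ± 0.09 (edgeR adjusted p = 0.888), with an interval from 0.879-fold to 1.18-fold.

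Of the 2 chains of the type I interferon receptor, Ifnar2 passed and Ifnar1 did not. Ifnar1 (NCBI Gene 15975, chromosome 16, 91485032 to 91510523), the chain that carries TYK2, was at 164, 155 and 156 CPM in control and at 153, 185 and 164 CPM in DSS. It was lower with inflammatory medium in mouse 1716 and higher in the other two, and the groups overlapped. The log2 fold change was 0.08 ± 0.08 (edgeR adjusted p = 0.58; interval 0.924-fold to 1.21-fold).

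Ifnar2 (NCBI Gene 15976, chromosome 16, 91372783 to 91405589), the high-affinity binding chain, which carries JAK1, was at 77.3, 71.7 and 68.0 CPM in control and at 109, 104 and 109 CPM in DSS. The lowest DSS library was well above the highest control library. It rose by 0.57 ± 0.07 on the log2 scale (edgeR adjusted p = 0.00306; interval 1.33-fold to 1.66-fold), and the rise was 1.41-fold, 1.45-fold and 1.60-fold in the 3 mice. Such a separation of the groups, with every DSS library above every control library, was seen in 17.8% of tested genes. Without both libraries of mouse 1717 the edgeR adjusted p was 0.0546 by group alone. It was 0.00163 in a fit that also paired the cultures by mouse.

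Ifnar2, Ifnar1 and Ifngr2 lie in this order on chromosome 16, with Il10rb, a receptor chain shared by interleukin-10 and interferon-lambda, between the first 2 of them. For Il10rb the levels were 36.0 ± 0.769 CPM (SD, n = 3) in control against 38.4 ± 3.53 CPM in DSS, and the test was not passed (edgeR adjusted p = 0.499). Ifnar2 was the 1 gene called of these 4 neighbours, beside 13.3% called among all tested genes.

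Most counts of Ifnar2 were assigned to a short transcript, which is shown because it carried the larger part of the gene's rise. The authors' counts are divided among 4 transcripts of the gene. The short one (RefSeq NM_001110498) has 744 coding bases in 6 coding exons, and the long one (NM_010509) has 1539 coding bases in 8. The long form encodes the receptor that spans the membrane, and the short one lacks the last exons, which encode the membrane-spanning and intracellular parts; a short, secreted IFNAR2 is known in mice. The point where the forms part is given on the plus strand of chromosome 16 (GENCODE M21, GRCm38), with the last 20 shared coding bases (chr16:91393894-91393913) in lower case and the next 35 coding bases of each form in capitals.
Short form, reading on into chr16:91393914-91393948: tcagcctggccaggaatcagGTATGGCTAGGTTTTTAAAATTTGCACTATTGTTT
Long form, continuing in the next exon at chr16:91399218-91399252: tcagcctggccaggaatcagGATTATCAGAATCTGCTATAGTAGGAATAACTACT
The short form was estimated at 44.6, 44.0 and 37.4 CPM in control and at 71.1, 68.1 and 61.6 CPM in DSS (mice 1716, 1717 and 1718). The groups did not overlap, and the differences were 0.67, 0.62 and 0.71 on the log2 scale with 0.5 CPM added. The long form was at 23.4, 15.1 and 24.6 CPM in control and at 26.3, 21.8 and 32.5 CPM in DSS. It was higher with inflammatory medium in each mouse, by 0.16, 0.52 and 0.40, but the groups overlapped. The short form took 57.7, 61.4 and 55.1% of the gene's counts in control and 65.4, 65.2 and 56.7% in DSS, ranges that overlap. The other listed transcripts, NM_001347258 and XM_011246100, stayed at or under 11.4 CPM in every library. The short form's own bases shown above lie in the stretch that the long form splices out. Whether unspliced RNA added to its counts was not tested. All transcript levels are estimates that divide shared reads by likelihood, with no error deposited, so they are given without a test.

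**Figure D2:**
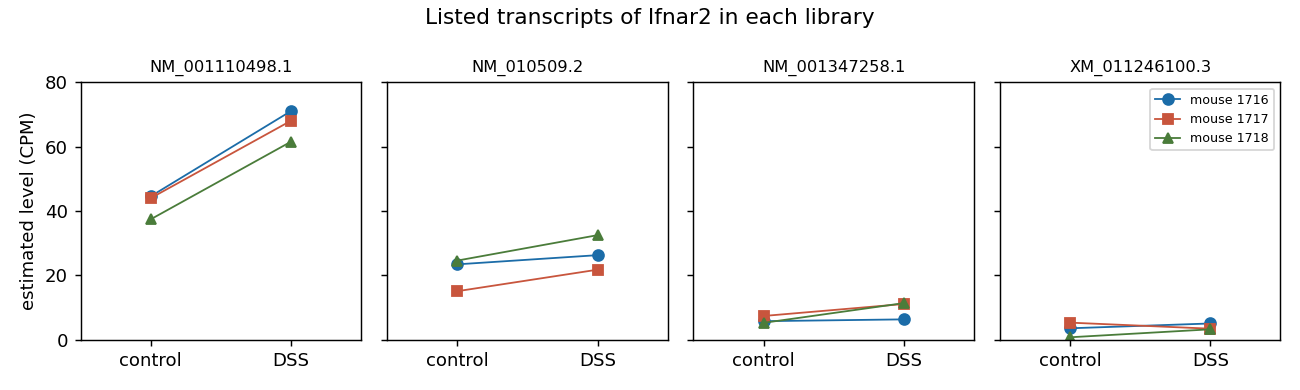
Estimated level (CPM, shared vertical axis from 0) of the 4 listed Ifnar2 transcripts in control and DSS, with 1 line per mouse. The short form, NM_001110498, ran from 37.4 to 44.6 CPM in control and from 61.6 to 71.1 CPM in DSS, while the control and DSS ranges of the long form, NM_010509, overlapped.

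Among the kinases Jak2 and Tyk2 rose, and Jak1 did not pass. Jak1 (NCBI Gene 16451, chromosome 4, 101151974 to 101265282), which serves both receptors, was the most highly counted member, at 259, 269 and 279 CPM in control and 272, 260 and 270 CPM in DSS. The 6 libraries lay close together with no order by group. The log2 fold change was -0.01 ± 0.06 (edgeR adjusted p = 0.946), and the 95% interval ran from 0.895-fold to 1.10-fold.

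Jak2 (NCBI Gene 16452, chromosome 19, 29251803 to 29313095), the partner kinase at the interferon-gamma receptor, was at 104, 111 and 103 CPM in control and at 146, 159 and 193 CPM in DSS. The control cultures were nearly level, and the DSS culture of mouse 1718 was the highest. Jak2 rose by 0.65 ± 0.11 on the log2 scale (edgeR adjusted p = 0.00874; interval 1.32-fold to 1.87-fold), and by 1.41-fold, 1.44-fold and 1.88-fold in the 3 mice. Its most highly counted transcript, NM_008413, went from 61.4 ± 2.13 to 101 ± 12.7 CPM (SD, n = 3) and held 57.3 to 63.2% of the gene's counts in any library. By group alone the edgeR adjusted p was 0.083 without mouse 1717 and 0.0575 without mouse 1718. In fits that also paired the cultures by mouse it was 0.00199 and 0.00748.

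Tyk2 (NCBI Gene 54721, chromosome 9, 21104068 to 21131393), the partner kinase at the type I receptor, was at 42.0, 48.6 and 49.1 CPM in control and at 60.2, 65.1 and 59.7 CPM in DSS. All DSS cultures were above all control cultures, with a narrower gap than for Ifnar2 or Jak2. Tyk2 rose by 0.41 ± 0.08 (edgeR adjusted p = 0.0181; interval 1.16-fold to 1.51-fold), and by 1.43-fold, 1.34-fold and 1.22-fold in the 3 mice. Of its 9 listed transcripts NM_001205312, XM_006510494 and XM_011242579 were above their control level in all 3 mice. NM_001205312 was at 9.39, 11.4 and 12.2 CPM in control and 19.6, 22.4 and 17.8 CPM in DSS. Another, NM_018793, ranged from 2.56 to 17 CPM among the DSS libraries alone. By group alone the call of Tyk2 was weaker than that of Jak2. The edgeR adjusted p of Tyk2 was 0.0542 without control 1717 and 0.0603 without DSS 1717. It was 0.0569, 0.142 and 0.0928 without mouse 1716, 1717 or 1718. In fits that also paired the cultures by mouse it was 0.00761, 0.015 and 0.0132 without these mice. GENCODE M21 places an antisense RNA across Tyk2 and the end of Raver2 across the end of Jak1, and the sources used here do not say whether counting used strand. It also places a protein-coding model, Gm21970, on the strand of Ifnar2 (chr16:91391721-91419451), across the point where the Ifnar2 forms part, so reads there cannot be assigned to Ifnar2 by strand.

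Socs1 (NCBI Gene 12703, chromosome 16, 10783808 to 10785536) encodes the inhibitor that closes this loop, and had the largest fold change among the members. It stood at 6.74, 5.81 and 7.39 CPM in control, from 133, 106 and 129 counts. In DSS it stood at 21.6, 8.51 and 21.6 CPM, from 378, 150 and 380 counts. The DSS cultures of mice 1716 and 1718 were nearly equal, and that of mouse 1717 lay just above the control range. Socs1 rose by 1.37 ± 0.34 on the log2 scale (edgeR adjusted p = 0.037; interval 0.59 to 2.16), and by 1.61, 0.51 and 1.49 in mice 1716, 1717 and 1718. Without the DSS culture of mouse 1717 the log2 fold change was 1.70 (edgeR adjusted p = 0.000994). Leaving out any other single library gave an adjusted p of 0.0866 to 0.127. Leaving out mouse 1716 or 1718 gave 0.174 or 0.191, and limma-voom gave 0.0852. None of these fits used the pairing by mouse. In edgeR fits that paired the cultures by mouse, leaving out mouse 1716 or 1718 gave an adjusted p of 0.00593 or 0.0217. Both listed transcripts hold the same 636 coding bases. NM_009896 was higher with inflammatory medium in every mouse, by 2.07, 0.94 and 1.52 on the log2 scale, and NM_001271603 differed by 1.03, -0.10 and 1.28.

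With the mouse as a block, which compares the cultures of the same animal, the same 4 members passed and the other 4 did not. The blocked adjusted p by edgeR was 0.000726 for Ifnar2, 0.00212 for Jak2, 0.00403 for Tyk2 and 0.00317 for Socs1. For Ifngr1, Ifngr2, Ifnar1 and Jak1 it was 0.65, 0.795, 0.515 and 0.93. In that fit 12.3% of tested genes were called higher and 12.7% lower. The blocked interval of Socs1 was narrower, from 1.80-fold to 3.44-fold, and the 4 calls held in each blocked fit that left out 1 mouse.

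**Figure D3:**
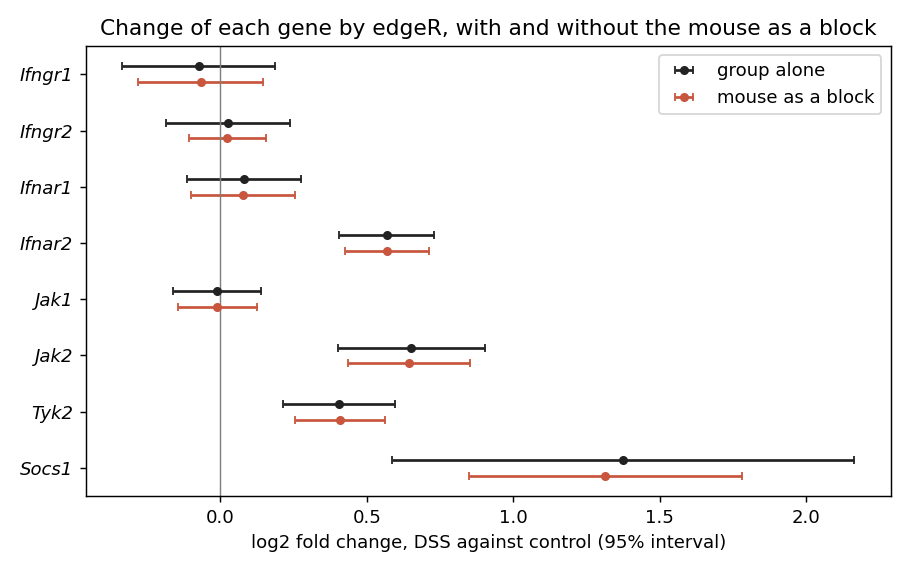
Log2 fold change of each member, DSS against control, by edgeR with the group alone (black) or with the mouse as a block (red); points are fitted values and bars their 95% intervals. The intervals of Ifnar2, Jak2, Tyk2 and Socs1 lie above 0 in both fits, and those of the other 4 members include 0.

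Scaled by transcript length, the members spanned about an order of magnitude in control. In CPM per kb, the control levels were 54.8 ± 2.02 for Jak1, 53.0 ± 3.42 for Ifnar2, 41.3 ± 2.84 for Ifngr2, 40.5 ± 1.27 for Ifnar1, 27.3 ± 4 for Ifngr1, 21.0 ± 0.868 for Jak2, 9.68 ± 0.821 for Tyk2 and 5.25 ± 0.630 for Socs1 (SD, n = 3). Jak1 and Ifnar2 overlapped across libraries, as did Ifngr2 and Ifnar1, and the other neighbours in this order did not. The place of Ifnar2 rests on the length of its short form: with the length of its longest transcript it was at 23.7 CPM per kb in control, in place 5 of the 8, and at 35.2 CPM per kb in DSS, in place 4. In DSS, by the count-weighted length, the order was Ifnar2 (78.5 ± 1.83 CPM per kb), Jak1 (54.5 ± 1.36), Ifnar1 (42.8 ± 4.12), Ifngr2 (42.0 ± 4.06), Jak2 (33.1 ± 4.80), Ifngr1 (26.0 ± 1.79), Socs1 (13.6 ± 5.97) and Tyk2 (12.8 ± 0.622). Ifnar1 and Ifngr2, Ifngr2 and Jak2, and Socs1 and Tyk2 overlapped there. By these lengths Jak2 was below Ifngr1 in every control library and above it in every DSS library. The CPM took in all listed transcripts, but only some had a length: 1 of 7 for Jak1, 2 of 7 for Jak2, 2 of 9 for Tyk2, 2 of 4 for Ifnar2 and 1 of 2 for Ifnar1. The order of close neighbours therefore rests on those transcripts.

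**Figure D4:**
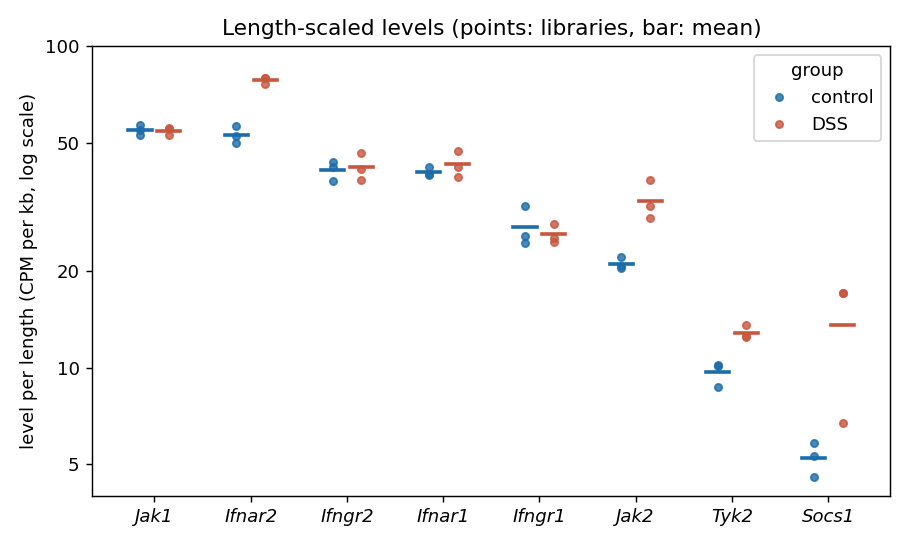
Length-scaled level of each member (CPM per kb, log axis) in control (blue) and DSS (red), ordered by the control mean; points are libraries and bars are means of 3. Socs1 is lowest in control at 5.25 CPM per kb, and Jak2 moves from 21.0 to 33.1 CPM per kb while Jak1 remains near 54.

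Within each library the ratio of the partners was compared as well, since this removes the scaling of the library. The ratio of Jak2 to Jak1 per length was 0.390, 0.402 and 0.359 in control and 0.524, 0.599 and 0.698 in DSS. The ratio of Tyk2 to Jak1 was 0.165, 0.185 and 0.179 in control and 0.225, 0.256 and 0.226 in DSS. Both kinases thus stood higher against Jak1 in all 3 mice, without overlap. The ratio of Ifnar2 to Ifnar1 was 1.35, 1.32 and 1.25 in control and 2.03, 1.61 and 1.89 in DSS. With the longest transcript lengths these became 0.604, 0.593 and 0.560 in control and 0.910, 0.724 and 0.849 in DSS, so whether Ifnar2 stands above Ifnar1 depends on the length used. That of Socs1 to Jak1 was 0.101, 0.0838 and 0.103 in control and 0.307, 0.127 and 0.311 in DSS. On the log2 scale these 4 ratios were higher in DSS by 0.65 (Jak2), 0.42 (Tyk2), 0.49 (Ifnar2) and 1.27 (Socs1). Each reached the smallest two-sided p that an exact permutation test of 3 against 3 libraries allows, 0.1 (0.125 adjusted over 5 ratios), so this design cannot reach 0.05 by that test. The test treats the libraries as independent and does not use the pairing by mouse. The ratio of Ifngr2 to Ifngr1 was 1.20, 1.70 and 1.73 in control and 1.51, 1.66 and 1.69 in DSS, and was higher in 1 of 3 mice (exact permutation p = 1).

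The interferons themselves were almost uncounted. None of 20 interferon genes passed the filter on low counts, and 8 of them had an estimate of exactly 0, before rounding, in every library. Ifng, the gene of interferon-gamma, had 0 counts in each control library, which allows up to 0.152 to 0.172 CPM (3 counts, for counting error only), and 7, 1 and 0 counts in the DSS libraries of mice 1716, 1717 and 1718. Ifnb1, the gene of interferon-beta, had 1 count in all, in DSS 1718. Ifnk, an interferon of skin, had 1, 2 and 2 counts in control and 5, 6 and 15 in DSS. The groups of Ifnk did not overlap, at counts too low for a test across genes.

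Downstream of the kinases, 7 of 15 tested STAT and interferon regulatory factor genes rose and none fell, with a list median of 0.35. Of all tested genes 7.37% were called higher and 5.91% lower. Irf1, a factor of the early interferon response, had control levels of 39.4, 34.9 and 35.3 CPM against 255, 78.9 and 241 CPM in DSS, a rise of 2.39 ± 0.40 (edgeR adjusted p = 0.00929). Irf1 had its lowest DSS value in mouse 1717, as Socs1 did. Stat2 and Irf9, both parts of the transcription factor complex of the type I response, rose by 1.46 ± 0.22 and 0.89 ± 0.14. Irf7, which amplifies type I interferon, rose by 1.40 ± 0.26, and Irf2, an antagonist of IRF1, by 0.44 ± 0.08. Irf5 and Irf8 also passed with the mouse as a block (adjusted p = 0.013 and 0.0232), which made 9. Irf2 lost its call without control 1717 (adjusted p = 0.0551). Without the block, fits that left out 1 mouse ended more calls: Stat2 without mouse 1716 (0.0505), Irf1 without 1716 (0.0574) or 1718 (0.0996), and Irf9 without 1717 (0.0587). Irf7 and Irf2 lost theirs without 1717 (0.112 and 0.0849) or 1718 (0.0561 and 0.106). With the mouse as a block, Stat2, Irf1, Irf9, Irf7 and Irf2 each kept the call in all 3 fits that left out 1 mouse.

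**Figure D5:**
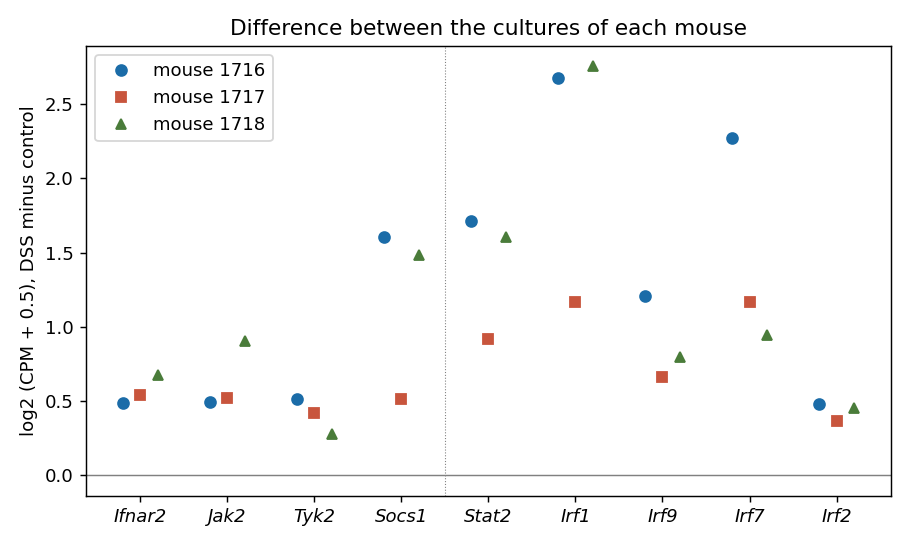
Difference of log2 (CPM + 0.5) between the DSS and control culture of each mouse for the 4 members that rose (left of the dotted line) and for Stat2, Irf1, Irf9, Irf7 and Irf2 (right). Mouse 1717 gave the smallest difference for Socs1 (0.51), Stat2 (0.92), Irf1 (1.17), Irf9 (0.66) and Irf2 (0.37), and the middle one for Ifnar2, Jak2, Tyk2 and Irf7.

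The size of the response by mouse differed among the members that rose. Socs1 had its smallest difference in mouse 1717, 0.51 against 1.61 and 1.49 in mice 1716 and 1718. Ifnar2 differed by 0.49, 0.54 and 0.67, Jak2 by 0.49, 0.52 and 0.91, and Tyk2 by 0.51, 0.42 and 0.28 in mice 1716, 1717 and 1718. Mouse 1717 was the middle of the 3 for these genes, as it was for Irf7 (2.27, 1.17 and 0.94). With 1 pair of cultures per mouse this difference between mice has no replicate and was not tested.

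None of 7 other SOCS family genes passed, with a list median of -0.03. Of all tested genes 7.37% were called higher and 5.91% lower. Whether their changes differed from that of Socs1 was not tested. Socs3, the inhibitor induced by interleukin-6 signalling, had 160 ± 16.6 CPM in control against 197 ± 19 CPM in DSS (edgeR adjusted p = 0.105), and Socs2 at 41.8 ± 6.41 and 55.5 ± 6.85 CPM (0.0838). With the mouse as a block Socs2 and Socs3 were higher (adjusted p = 0.00211 and 0.00617) and Socs5 lower (0.0197).

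Of 12 other restraints of this signalling 2 rose and 2 fell, with a median of -0.05, beside 7.37% of all tested genes higher and 5.91% lower. Ptpn1, a phosphatase that acts on JAK2 and TYK2, went from 75.1 ± 4.89 to 140 ± 23.3 CPM, a rise of 0.89 ± 0.13 (edgeR adjusted p = 0.00509). Cbl, a ubiquitin ligase for receptors and kinases, rose by 0.29 ± 0.06. Ptpn6, a phosphatase mostly of blood cells, fell by 0.46 on the log2 scale, and Pias3, which binds STAT3, fell by 0.33. Usp18, which blocks the type I receptor at its IFNAR2 chain, was at 5.95 ± 2.03 and 11.7 ± 3.60 CPM and did not pass (edgeR adjusted p = 0.0789; 0.02 with the block). Cbl, Ptpn6 and Pias3 each lost the call in 5 of 6 fits that left out 1 library (adjusted p = 0.0692 to 0.0968, 0.084 to 0.136 and 0.07 to 0.103), in each case all but that without DSS 1716, and in all 3 fits that left out 1 mouse. Ptpn1 lost its call without mouse 1717 (0.0647) or 1718 (0.0697). These fits had no block. In the 3 blocked fits that left out 1 mouse, Ptpn1 and Pias3 kept the call, while Cbl lost it in 2 and Ptpn6 in 1. Among JAK3 and 4 partners of the SOCS box, the part of SOCS proteins that recruits a ubiquitin ligase, Eloc fell by 0.45 and Elob by 0.28, and Jak3 did not pass. Without the block, the call of Elob was lost in each fit that left out 1 library (adjusted p = 0.0608 to 0.14) or 1 mouse, and that of Eloc without mouse 1717 (0.0622) or 1718 (0.0681). In the 3 blocked fits that left out 1 mouse, Eloc kept the call and Elob lost it in 1.

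Other receptors that use JAK1, JAK2 or TYK2 mostly did not pass. Of 23 tested, Il12rb1 alone was called, beside 7.37% higher and 5.91% lower among all tested genes, and the median was 0.06. Il12rb1, a chain of the interleukin-12 receptor that carries TYK2, went from 1.60 ± 0.497 to 6.85 ± 3.47 CPM, a rise of 2.09 ± 0.44 (edgeR adjusted p = 0.0214). Its call was lost without DSS 1718 or without any control library (0.0546 to 0.0827), without mouse 1716 (0.0972) or 1718 (0.127), and with limma-voom (0.0551). With the mouse as a block Il12rb1 kept its call (edgeR adjusted p = 0.000479), also in all 3 blocked fits that left out 1 mouse. In the full blocked fit 3 of these receptors rose and 2 fell, where 12.3% of all tested genes were higher and 12.7% lower.

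By a rule of likeness, the genes whose centred log2 levels over the 6 libraries differed least from each member were found among 11222 genes whose mean reached 5 CPM. For Socs1 these were Ube2l6, Il18bp and Parp9, at a root mean square difference of 0.11, 0.13 and 0.14. For Ifnar2 they were Zfp760, Ypel1 and Zfp354a (0.031 to 0.035), for Jak2 Isyna1, Hibch and Wdr45 (0.058 to 0.062), and for Tyk2 Npc2, Ifrd1 and Anxa7 (0.022 to 0.040). Those nearest to Ifngr1 were Mrpl51, Zbtb33 and Ankrd6, to Ifnar1 Pigv, Usp38 and Cox6b1, and to Jak1 Preb, Rfxank and Ipo8. For Ifngr2, Pigs and Ehd3 were among the nearest 3, at 0.030 and 0.033. By this difference Socs1, which had the largest fold change, had the most distant neighbours of any member. Over the 6 libraries it correlated with its neighbours at r = 0.984 to 0.990. Jak1 had the closest neighbours by this difference, and correlated with them at r = 0.868 to 0.897.

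The cultures held fibroblast RNA with some of other cells. The 9 fibroblast markers summed to 37349 to 44062 CPM in control and 20128 to 24719 CPM in DSS, with 1 higher and 5 lower. Col1a1, Col1a2 and Col3a1 made up most of this sum and were lower, as were Pdgfrb and Vim. Pdgfra was higher (mean 599 CPM in control, 980 CPM in DSS). Dcn (1708 and 2362 CPM), Lum and Thy1 did not pass. With the mouse as a block Dcn was higher (edgeR adjusted p = 0.00385) and Thy1 was lower (0.00861). That fit called 2 of the 9 fibroblast markers higher and 6 lower. The 11 markers of macrophages and other myeloid cells, all counted, summed to 2015 to 2900 CPM in control and 1296 to 2122 CPM in DSS, with 1 (Cd68) higher and 3 lower. Among 4 markers of enteric glia none passed, and their sum ran from 95.8 to 323 CPM in control and from 59.4 to 261 CPM in DSS, highest in mouse 1716. The 9 epithelial markers summed to 12.1 to 17.1 CPM in control and 4.25 to 6.38 CPM in DSS, and 2 of 4 tested fell. The 6 endothelial markers summed to 10.9 to 18.4 and 7.06 to 11.0 CPM. The 9 T and NK cell markers summed to 7 to 10.1 and 8.52 to 10.3 CPM, with Cd3g, Cd2 and Ncr1 at 0 in every library. The 5 markers of smooth muscle and interstitial cells summed to 649 to 672 and 735 to 800 CPM, with 1 higher. With the mouse as a block 1 myeloid marker was higher and 6 were lower. Of the glial and of the endothelial markers 2 each were lower, and 1 smooth muscle marker was higher and 1 lower. The epithelial and the T and NK cell lists kept their counts. In that fit 12.3% of all tested genes were higher and 12.7% lower, against 7.37% and 5.91% without the block. The part of other cells in the changes of the members was not tested.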

How the data were processed

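RNA of the 6 cultures went into strand-specific libraries after rRNA depletion, per the labels' protocols. Expected counts per RefSeq transcript, unscaled, are what the authors deposited; kallisto is named as the tool and GRCm38 and mm10 as builds, per the submitters' processing notes. Counts were summed per symbol and rounded. Low genes were removed with filterByExpr (a minimum count of 10 and a minimum total of 15), and edgeR 4.0.16 in R 4.3.3 scaled (TMM) and tested the rest with the group alone as the term and Benjamini-Hochberg adjustment over 19869 genes. The SE is the log2 fold change divided by the square root of F. Depth was 17293680 to 19482938 estimated counts, of which rRNA entries took 5.07 to 6.41%. The labels give the same 3 mice in both groups, so the mouse numbers pair the cultures. Across genes, deviations from the group means correlated with r = 0.40, 0.25 and 0.52 within mice and -0.41 to 0.02 between mice. Lengths are those of GENCODE M21 transcripts paired with RefSeq accessions (version ignored), clipped to the RefSeq gene and weighted by counts. Listed transcripts without such a pair gave no length. RefSeq promoters were found for 8 of 8 members. Alternatives were DESeq2 1.42.0, limma-voom (limma 3.58.1), no TMM, no filter, scaling without rRNA entries, the mouse as a block, and leaving out libraries or mice. The scripts were tested on simulated data. All 8 members are named, and from each pathway list the called genes that average 1 CPM or more, up to 6 by p, with any called against the majority. The members, the lists and the rules were chosen with earlier results of these data known. Results for some genes are not reported here.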

Additional observations from a re-analysis of the deposited data

How the results depend on the processing

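The counts of genes called moved with the replicate block and with left-out mice. With the mouse as a block by edgeR 2447 genes were higher and 2518 lower, against 1465 and 1174 without it, and of the pathway genes 17 were higher and 9 lower, against 10 and 4. Of pathway genes 2 were lower with the library total alone or with no filter. With all 6 libraries 4 members were higher and 0 lower in every fit but limma-voom, which called 3 higher (not Socs1). Leaving out 1 library or 1 mouse without the block gave 378 to 1310 genes higher and 185 to 1108 lower, 1 to 3 members higher, and 3 to 11 pathway genes higher and 0 to 3 lower. Leaving out mice with the block gave 1357 to 2304 genes higher and 1422, 1810 or 2375 lower, 4 members higher, and 12 to 18 pathway genes higher and 3 to 8 lower. The 4 members that did not pass crossed 0 on the log2 scale: Ifngr1 ran from -0.173 to 0.0716 without the block and to 0.0698 with it (without mouse 1716). Ifngr2 ran from -0.0499 to 0.0904 (-0.00749 with the block, without mouse 1717), and Ifnar1 from -0.0120 to 0.167 (-0.0124). Jak1 ran from -0.0490 to 0.0162, with 0.00656 on the library total alone and, with the block, 0.00929 and 0.000578 without mice 1717 and 1718. Over 19 alternatives Ifnar2 ran from 0.51 to 0.61, Jak2 from 0.50 to 0.74, Tyk2 from 0.33 to 0.46 and Socs1 from 1.12 to 1.70. The log2 ratio of Ifngr2 to Ifngr1 differed by -0.0353 to 0.152 without 1 mouse, against 0.09. The length behind the Ifnar2 level was varied after the data were seen. The causes were not tested.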
